A study of Mus musculus with 98 samples.

Results

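The 7 genes described here encode subunits of the GABA-A receptor: Gabra2, Gabra3, Gabra4 and Gabra5 (alpha subunits), Gabrb1 and Gabrb2 (beta subunits) and Gabrd (the delta subunit). They were chosen with earlier results of these data known and were taken by name from the count tables. All 7 were listed in each of the 6 tables, which hold 25239 genes (unstimulated and stimulated neurons) or 55367 genes (the other 4). All 7 also passed the filter on low counts in every comparison. Their levels were followed across 98 RNA-seq libraries in 22 groups, in a study that asks what raised expression of ACSS2, which turns acetate into acetyl-CoA, does to neurons.

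The cultures were primary hippocampal neurons from CD1 mouse embryos. They received the PhP.eB-packaged virus upACSS2 (which carries ACSS2) or the empty vector on day 5 in vitro for 48 hours, and were washed and given tau from human Alzheimer's disease brain (hAD-tau) or PBS on day 7. Of the unstimulated cultures, 3 libraries per group came from day 9 and 3 from day 21 for each of the 4 combinations of virus and tau. The same 4 combinations were also sampled after stimulation on day 21, 3 libraries each. Cultures without any virus were sampled on day 21 with hAD-tau (4 libraries) or PBS (3 libraries). The stimulus, the promoter in the virus and whether replicates were separate cultures are not given in the sources used here, so p-values over replicates measure the spread between these libraries, which may be technical.

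All mice received upACSS2 or vector by retro-orbital injection, at a dose of 1.5e11 viral genomes in aged mice, 1.2e11 in 10-month mice and 1.5e10 in PS19 mice, and tissue was taken 30 minutes after a behavioural session. Male C57BL6 mice aged 22 to 23 months (12 per virus, whole hippocampus) had been injected 2 months before. C57BL6 mice aged 10 months (6 upACSS2, 5 vector, dorsal hippocampus) had been injected 2 weeks before. PS19 mice, which carry a mutant human tau transgene driven by the prion protein promoter in both virus arms, were injected at 2.5 months and sampled 1 month later (age 3.5 months) or 6 months later (age 8.5 to 9 months), 5 per group. The upACSS2 mice sampled at 1 month are labelled as whole hippocampus and the other PS19 mice as dorsal hippocampus, so at 1 month the effects of dissection and of virus cannot be told apart.

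Library totals ran from 14603730 to 33960722 counts in unstimulated neurons, 18804544 to 39985460 in stimulated neurons, 5683314 to 29890248 without a virus, 11436140 to 28161314 in aged mice, 5075099 to 10839489 in 10-month mice and 6910945 to 33259982 in PS19 mice. Acss2 itself stood at 1488 to 5462 counts scaled to the library total (CPM) in upACSS2 neurons against 40.1 to 57.9 with vector. In mice the ranges lay close together or overlapped, at 46.7 to 61.5 against 40 to 53.7 CPM in aged mice, 49.9 to 59.3 against 42.3 to 48.8 in 10-month mice, 60.1 to 1465 against 51.5 to 66.3 in PS19 mice at 1 month and 44.9 to 237 against 43.1 to 56 at 6 months. The means with upACSS2 and with vector were 54.4 and 47.3 CPM in aged mice and 55.8 and 44.8 in 10-month mice. In PS19 mice they were 636 and 55.1 at 1 month and 110 and 48.2 at 6 months. The PS19 rise was thus larger but uneven between libraries. Several libraries stood apart. In 3 of the day 21 libraries (upACSS2 PBS replicate 1, vector PBS replicate 2, vector tau replicate 2) a list led by the ribosomal RNA precursor Rn45s summed to 37776 to 107720 CPM, against 4182 to 18027 in the other unstimulated day 21 libraries with a virus. Replicate 3 of the vector PBS day 21 cultures held 20756 CPM of astrocyte markers, the highest of those libraries, and replicate 3 of the PBS cultures without a virus held 4748 CPM of neuron markers against 2799 to 3047 in the other PBS libraries.

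GABA-A receptors are chloride channels opened by GABA and carry most fast inhibition in the hippocampus. Most are pentamers of alpha, beta and either gamma or delta subunits, and the alpha subunit and the presence of delta set where the receptor sits and how it responds. Receptors with alpha2 are typical of synapses, including those on the axon initial segment. Alpha5 receptors, abundant on hippocampal pyramidal cells, and alpha4-delta receptors, abundant on dentate granule cells, are mostly extrasynaptic and carry tonic inhibition.

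The 7 genes lie in 5 places of the mouse genome, given here on GRCm38 with the GENCODE M21 annotation. Gabra2 (chr5:70957597-71095849, minus strand), Gabra4 (chr5:71569749-71658308, minus strand) and Gabrb1 (chr5:71658113-72149037, plus strand) form 1 cluster, in which the 5′ ends of Gabra4 and Gabrb1 overlap head to head. Gabra5 lies at chr7:57407672-57510059 (minus strand). Gabrb2 (chr11:42419757-42629028, plus strand) and Gabra3 (chrX:72432681-72656848, minus strand) stand in other subunit clusters, and Gabrd (chr4:155384980-155398112, minus strand) stands by itself. Whether counting used strand is not given in the sources used here, so reads from the overlapping stretches of Gabra4 and Gabrb1, and of Gabra3 and the small RNA genes Mir105 and Mir767 within it, cannot be assigned to 1 partner with certainty. Gabra5 also overlaps other annotated genes, and the same limit holds for it.

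Start-site windows (250 bases before to 50 after the start, RefSeq on GRCm38.p6) were found for 6 of the 7 genes, all but Gabrd. The windows of Gabra2 and Gabra5 are shown because these were the 2 genes with the largest fall from day 9 to day 21, and the first windows of Gabrb1 and Gabrb2 because these were the genes for which stimulated libraries lay above unstimulated ones without overlap in more than 1 combination of virus and tau. Capitals mark matches, on either strand, to the EGR motif GCGNGGGCG, named for a family of activity-induced factors, and to TGACG, the short form of the cAMP response element.
Gabra2, chr5:71095800-71096099, minus strand: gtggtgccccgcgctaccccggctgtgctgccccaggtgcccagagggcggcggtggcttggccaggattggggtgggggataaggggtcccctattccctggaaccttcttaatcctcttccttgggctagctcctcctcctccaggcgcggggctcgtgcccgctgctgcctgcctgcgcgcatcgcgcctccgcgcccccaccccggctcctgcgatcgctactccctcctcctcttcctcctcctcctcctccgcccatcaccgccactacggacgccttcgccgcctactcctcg
Gabra5, chr7:57510010-57510309, minus strand: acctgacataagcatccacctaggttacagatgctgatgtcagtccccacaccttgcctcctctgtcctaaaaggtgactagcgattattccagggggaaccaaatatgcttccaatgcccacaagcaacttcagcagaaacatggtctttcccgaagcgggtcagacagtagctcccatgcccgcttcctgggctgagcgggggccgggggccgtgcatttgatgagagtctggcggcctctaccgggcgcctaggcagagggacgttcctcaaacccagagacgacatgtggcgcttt
Gabrb1, chr5:71657671-71657970, plus strand: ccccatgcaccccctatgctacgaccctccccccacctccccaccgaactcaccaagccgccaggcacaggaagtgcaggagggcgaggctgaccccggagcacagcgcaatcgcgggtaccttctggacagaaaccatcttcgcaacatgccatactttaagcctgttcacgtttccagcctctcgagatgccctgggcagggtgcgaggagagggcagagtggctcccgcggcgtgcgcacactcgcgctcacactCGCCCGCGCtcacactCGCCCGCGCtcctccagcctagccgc
Gabrb2, chr11:42420190-42420489, plus strand: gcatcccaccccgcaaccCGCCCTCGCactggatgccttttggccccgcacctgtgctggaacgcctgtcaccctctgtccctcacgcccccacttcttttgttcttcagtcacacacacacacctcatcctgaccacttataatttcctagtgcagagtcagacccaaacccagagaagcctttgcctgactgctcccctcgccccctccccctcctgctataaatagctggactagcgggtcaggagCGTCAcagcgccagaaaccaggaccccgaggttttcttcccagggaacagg

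The EGR motif matched at 2 places in the first Gabrb1 window and at 1 place in the first Gabrb2 window, and TGACG matched once in the latter. The other windows of Gabrb1 and Gabrb2 held neither motif. Of all 32851 windows in the table, 5.55% held the EGR motif and 20.8% held TGACG. The full element TGACGTCA, held by 1.79% of all windows, was in none of the windows of the 6 genes. The Gabra2 window was 70% G and C, which placed it at percentile 90.4 of all windows, and that of Gabra5 was 56.7% G and C. The first windows of Gabrb1 and Gabrb2 were 66% (percentile 83.8) and 59% (percentile 68.1) G and C. The median of all windows was 52.7%. How many windows of like G and C content held the EGR motif, itself rich in G and C, was not counted. The Gabrb1 window lies inside the annotated Gabra4 gene. A match is a run of letters and was not tested as a binding site.

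From day 9 to day 21 in culture, Gabra2 fell in all 4 combinations of virus and tau, and Gabra5 fell in 3 of them. On day 9 the log2 CPM of Gabra2 was 9.49, 9.47 and 9.48 with vector in PBS, and on day 21 it was 8.35, 7.88 and 7.86. With vector and tau it went from 9.51, 9.59 and 9.47 to 8.37, 7.87 and 8.44, with upACSS2 in PBS from 9.64, 9.61 and 9.68 to 8.36, 8.29 and 8.95, and with upACSS2 and tau from 9.60, 9.66 and 9.67 to 8.67, 8.74 and 8.27. All 12 day 9 libraries therefore lay above all 12 day 21 libraries, and the day 21 libraries were the more scattered. How many of all genes separated likewise between the days was not counted. The log2 fold changes of Gabra2 were -1.43, -1.27, -1.08 and -1.07 (SE 0.17 each; adjusted p = 5.2e-07, 2.57e-06, 1.73e-05 and 1.9e-05 by edgeR's quasi-likelihood test), in the order vector PBS, vector tau, upACSS2 PBS and upACSS2 tau.

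Gabra5 had log2 CPM of 8.41, 8.43 and 8.45 on day 9 with vector in PBS and 7.99, 7.55 and 7.06 on day 21. With vector and tau it had 8.55, 8.47 and 8.42 against 8.13, 7.46 and 7.81, with upACSS2 in PBS 8.57, 8.55 and 8.61 against 7.49, 7.63 and 8.37, and with upACSS2 and tau 8.55, 8.62 and 8.68 against 8.38, 8.26 and 8.10. As for Gabra2, no day 21 library reached a day 9 library, a separation whose share over all genes was not counted. The fold changes were -0.85, -0.66 and -0.69 in the first 3 combinations (edgeR adjusted p = 0.00128, 0.00936 and 0.00638) and -0.36 with upACSS2 and tau, which missed the threshold (adjusted p = 0.132). It passed when only the 2 groups compared were fitted (adjusted p = 0.0031).

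The other 5 members had smaller changes than Gabra2 in every combination. Gabrb2, the beta2 gene, rose by 0.28 with upACSS2 in PBS (edgeR adjusted p = 0.0141) and by 0.24 with upACSS2 and tau (adjusted p = 0.0285). Gabrd rose by 0.55 and 0.64 in the same 2 combinations (adjusted p = 0.0273 and 0.0124). Its counts were the lowest of the 7, at 65 to 204 reads per library, which limits its precision. Gabra3, an alpha subunit best known from the thalamic reticular nucleus and monoaminergic neurons, fell by 0.29 in upACSS2 PBS cultures (adjusted p = 0.0412), and its call was lost without any 1 of 4 of the 6 libraries compared, at the most to -0.20 without day 21 replicate 2 (adjusted p = 0.174).

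Calls of the smaller rises were also lost with single libraries left out. In upACSS2 PBS the call of Gabrd was lost without day 21 replicate 1 or 2 or day 9 replicate 1 or 3 (adjusted p = 0.114, 0.1, 0.109 and 0.0512), and that of Gabrb2 without day 21 replicate 3 or day 9 replicate 2 (adjusted p = 0.0566 and 0.0649). With upACSS2 and tau, Gabrb2 kept its call only without day 21 replicate 3 (adjusted p of 0.0553 to 0.133 without each of the other 5 libraries), and Gabrd kept its call without any 1 library.

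Gabra4, the alpha subunit that pairs with delta, had fold changes of 0.27, 0.20, 0.16 and 0.31, none past the threshold. Without the 3 libraries rich in Rn45s it was called in 3 combinations, at 0.38 (vector PBS, edgeR adjusted p = 0.0044), 0.39 (vector tau, 0.00381) and 0.31 (upACSS2 tau, 0.00856). In upACSS2 PBS 2 calls were lost in that refit, which has fewer libraries: Gabrd was at 0.45 (adjusted p = 0.0801) and Gabra3 at -0.29 (adjusted p = 0.0728), beside 0.55 and -0.29 with all libraries. Gabrb1 passed in no combination, unless vector PBS day 21 replicate 3, the library richest in astrocyte markers, was left out; it was then -0.42 (adjusted p = 0.04), and Gabra3 was 0.30 (adjusted p = 0.0358).

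In all, 2, 2, 5 and 3 of the 7 members were called, 0, 0, 2 and 2 of them higher. The background was wide: of 14863 genes tested, 57.7% were called in vector PBS (30.6% higher, 27.1% lower), 52.6% in vector tau (27.7% higher, 24.9% lower), 54.3% in upACSS2 PBS (28.5% higher, 25.8% lower) and 53.6% in upACSS2 tau (27.2% higher, 26.4% lower). Counts of 2 or 3 of 7 lie below those shares and 5 of 7 above, and with 7 genes none is read as particular to the members. Within combinations, 2, 0, 1 and 3 members had all day 21 libraries above all day 9 libraries. Members with all day 21 libraries below numbered 2, 2, 3 and 2. The share of all genes that separate in this way was not counted, so these separations are not read as particular to the members either. The median fold change of the 7 was 0.10, -0.04, -0.18 and 0.10, beside 0.05, 0.04, 0.03 and 0.01 for all genes.

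The change over culture time was also compared between conditions. No member had a different change with upACSS2 than with vector in PBS (0.0404% of all genes called), and none with tau than with PBS under vector (0.00673% called). By edgeR, 1 and 0 members had an unadjusted p under 0.05, beside 1907 and 1261 of all genes, and DESeq2 called 0 members in both.

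**Figure D1:**
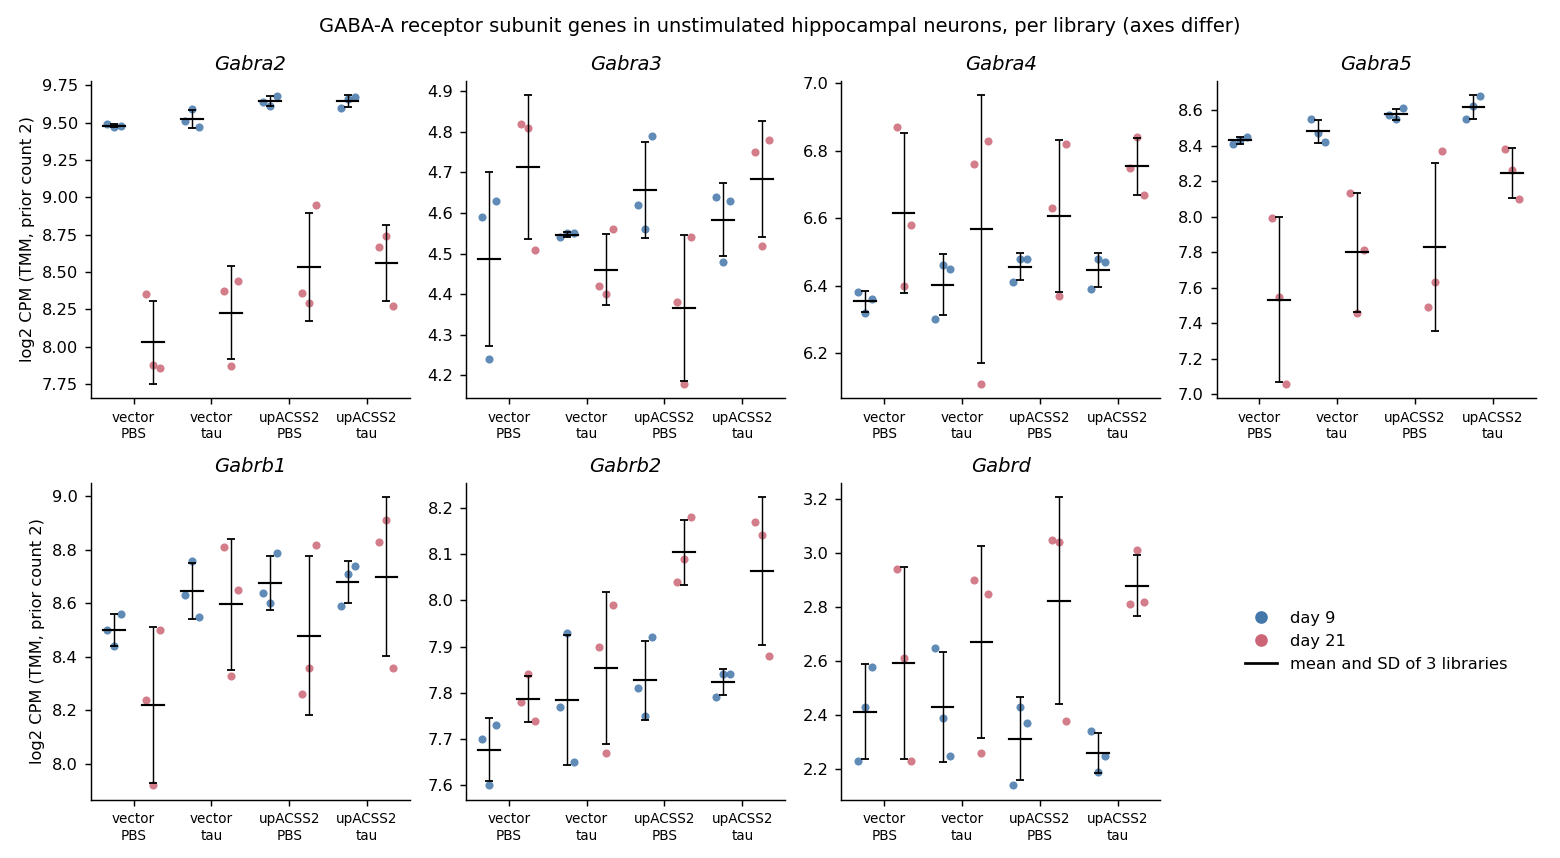
Log2 CPM of each member (1 panel per gene, with its own axis) in the 24 unstimulated libraries, by virus and tau, with day 9 and day 21 in different colours and the mean and SD of 3 libraries. Every day 21 point of Gabra2 and Gabra5 lies below every day 9 point, while the points of Gabrb1 overlap between the days in every combination. The share of all genes that separate by day was not counted.

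**Figure D2:**
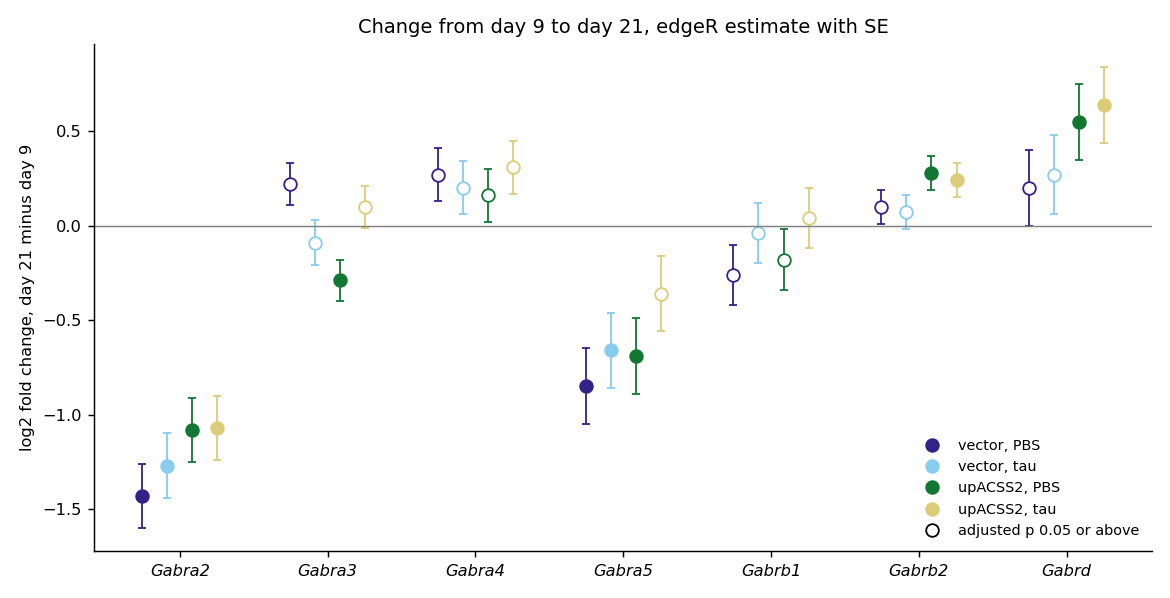
Log2 fold change from day 9 to day 21 (y axis) of each member (x axis) in the 4 combinations of virus and tau, with the SE; filled points passed an adjusted p of 0.05. Gabra2 lies between -1.43 and -1.07 and Gabra5 between -0.85 and -0.36.

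The make-up of the cultures changed over the same days. Neuron markers summed to 9161 to 9856 CPM on day 9 and 3959 to 6915 on day 21, excitatory neuron markers to 2653 to 3111 and 1929 to 4731, dentate granule cell markers to 322 to 378 and 372 to 651, interneuron markers to 628 to 780 and 1158 to 1893, astrocyte markers to 2339 to 2904 and 3778 to 20756, and oligodendrocyte markers to 195 to 343 and 1091 to 2775. Of 10 interneuron markers 8 were called higher in each combination, and of 8 neuron markers 5, 3, 3 and 3 were called lower and 1, 1, 2 and 2 higher. Of 7 excitatory neuron markers 3, 2, 3 and 2 were called lower and 1, 2, 1 and 3 higher, and of 7 dentate granule cell markers 1 was called lower in each combination and 4, 2, 3 and 4 higher. CA pyramidal cell markers had medians of 322, 358, 364 and 364 CPM on day 9 and 227, 341, 260 and 376 on day 21. These medians are in the order vector PBS, vector tau, upACSS2 PBS and upACSS2 tau. Microglia markers summed to 17.8 to 44.3 CPM with Tmem119 under 0.1 CPM, and the endothelial markers Cldn5, Tek and Ly6c1 were under 0.1 CPM. The part of these shifts in the subunit changes was not tested, and in bulk RNA fewer cells of a type and less RNA per cell cannot be told apart.

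Among 12 other subunit genes, 7 could be tested, of which 3, 3, 3 and 4 were called higher and 2, 2, 1 and 1 lower. Gabrg1, a gamma subunit, rose by 0.87, 0.85, 1.31 and 0.91 in the 4 combinations.

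Of 18 genes for synaptic partners of the receptor, 8, 6, 6 and 7 were called higher and 8, 6, 5 and 2 lower. Plcl1, whose product binds the receptor's beta subunits, rose by 1.10, 0.96, 1.24 and 1.09, and Insyn2a, an inhibitory synapse protein, fell, at -0.94, -1.18, -0.95 and -0.88. Shisa7, whose product is an auxiliary GABA-A receptor protein, fell, at -0.77, -0.70 and -0.64 in 3 combinations. Of 8 genes for GABA synthesis, uptake and chloride, 5, 5, 6 and 5 were called higher and 2, 1, 1 and 1 lower. Gad1 and Gad2, which make GABA, rose by 1.21, 0.94, 1.46 and 1.25 and by 1.06, 0.94, 1.31 and 1.28, beside the interneuron markers, which include both. Slc6a11, a GABA transporter, fell, at -1.97, -1.95, -2.01 and -2.31. Of 5 GABA-B receptor genes, 3, 2, 4 and 3 were called lower and 0 higher, led by the auxiliary subunit Kctd12 at -1.40, -1.21, -1.34 and -0.93.

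On day 9, with 14022 genes tested, 3 members were called higher with upACSS2 than with vector in PBS, where 10.2% of all genes were called (4.9% higher, 5.35% lower). The values are those given above for Gabra2 and Gabra5, and their upACSS2 and vector libraries did not overlap. The share of all genes without overlap was not counted in this comparison. Gabra2 was higher by 0.16 (SE 0.03, edgeR adjusted p = 0.00746) and Gabra5 by 0.14 (SE 0.04, adjusted p = 0.0252). Gabrb1 had 8.64, 8.60 and 8.79 with upACSS2 against 8.50, 8.44 and 8.56, and was higher by 0.17 (SE 0.05, adjusted p = 0.0352). These differences are small beside the fall of Gabra2 and Gabra5 with culture time.

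Gabrb2 was at 0.14 (edgeR adjusted p = 0.0987). The median difference of the 7 was 0.14 beside -0.00 over all genes. Regardless of sign, the median size was 0.14 for the 7 and 0.10 over all genes. Of the synaptic partners 2 of 18 were higher (Shisa7 0.36 and Nlgn2 0.13) and Rdx was lower (-0.16), of the supply and chloride genes 3 of 8 were higher (among them Abat at 0.23), and of the GABA-B genes 2 of 5 were higher (Gabbr2 0.19, Kctd12 0.13). Beside them, 5 of 8 oligodendrocyte markers tested were lower (median -0.28), 3 of 8 interneuron markers higher, and 3 neuron markers higher and 2 lower; their part in the subunit differences was not tested.

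The 3 calls depended on the estimate of spread. When all 24 unstimulated libraries shared 1 estimate, none of the 3 was called (adjusted p = 0.979, 0.986 and 0.972 for Gabra2, Gabra5 and Gabrb1) at fold changes of 0.16, 0.15 and 0.18. With 1 replicate left out, 1 to 3 members were called, and Gabra2 was called each time; Gabrb1 was lost without upACSS2 replicate 1, upACSS2 replicate 3, vector replicate 1 or vector replicate 2 (adjusted p = 0.055, 0.198, 0.11 and 0.118), and Gabra5 without upACSS2 replicate 1, 2 or 3 or vector replicate 1 (adjusted p = 0.0676, 0.058, 0.0921 and 0.115).

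The other 4 comparisons on day 9 called 0 members by edgeR: upACSS2 against vector in tau (0.692% of genes called), tau against PBS with vector (4.28%), tau against PBS with upACSS2 (0.349%) and the interaction of virus and tau (0.663%). Of the 7, 2, 1, 0 and 0 had an unadjusted p under 0.05, and DESeq2 called 0 in each. Of all genes, 1761, 2883, 1269 and 2409 had an unadjusted p under 0.05 by edgeR. These comparisons share libraries, so their fold changes are not independent.

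On day 21, with 14639 genes tested, 0 members were called in the 5 comparisons by edgeR or DESeq2. The shares of all genes called were 0.0137% for upACSS2 against vector in PBS, 0.0273% for the same in tau, and 0% for tau against PBS with vector, 0% for tau against PBS with upACSS2 and 0% for the interaction. In those last 3, edgeR gave 1361, 931 and 1215 genes with an unadjusted p under 0.05 and DESeq2 called 3, 11 and 3. Of the 7 members, 3, 0, 0, 1 and 1 had an unadjusted p under 0.05. For upACSS2 against vector, 2431 of all genes did in PBS and 1564 in tau. The scatter between day 21 replicates was larger, with SEs of 0.11 to 0.26 for single members in these 4 comparisons of groups.

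The 3 members at an unadjusted p under 0.05 were in upACSS2 against vector in PBS. Gabrb2 had 8.04, 8.09 and 8.18 against 7.78, 7.84 and 7.74, a difference of 0.31 (edgeR adjusted p = 0.231) in which no library overlapped. How many of all genes separated likewise was not counted. Gabra2 was at 0.51 (adjusted p = 0.283) and Gabra3 at -0.35 (adjusted p = 0.227), both with overlapping libraries. Gabrb2 was called at 0.32 when all 24 unstimulated libraries were fitted together, a fit that called 1576 of 14863 genes. Gabra3 had the largest interaction of virus and tau, 0.59 (adjusted p = 0.545): with vector the tau cultures were at -0.27 and with upACSS2 at 0.33.

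Stimulated and unstimulated day 21 cultures come from separate tables and were normalized separately, so they are set side by side without a test. A list of activity-induced genes summed to 6579 to 9358 CPM in the stimulated libraries and 210 to 591 in the unstimulated. Marker medians follow in the order vector PBS, vector tau, upACSS2 PBS, upACSS2 tau. Neuron markers had 6794, 6667, 6568 and 7957 CPM stimulated against 4308, 5874, 5595 and 6535 unstimulated. Excitatory neuron markers had 3788, 4363, 2638 and 4482 against 2408, 4513, 2901 and 4279. The part of cell make-up in the differences between these cultures was not tested. Gabrb1 stood 0.38, 0.48, 0.31 and 0.41 log2 higher in stimulated cultures (vector PBS, vector tau, upACSS2 PBS, upACSS2 tau), and in all but upACSS2 PBS every stimulated library lay above every unstimulated one. With vector in PBS, for example, its log2 CPM was 8.54, 8.56 and 8.70 stimulated against 8.24, 7.92 and 8.50.

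Gabrb2 stood 0.29, 0.27, 0.25 and 0.14 higher, with no overlap in both vector combinations. With vector in tau that separation was below the second decimal, since the lowest stimulated and the highest unstimulated library were both at 7.99. Gabra2 stood 0.51, 0.37, 0.01 and 0.16 higher and was separate in vector PBS only, at 8.53, 8.56 and 8.55 against 8.35, 7.88 and 7.86. Gabrd was lower by 0.67 with upACSS2 and tau, at 2.23, 1.79 and 2.63 stimulated against 2.81, 3.01 and 2.82, and within 0.07 in the other 3 combinations. Gabra3, Gabra4 and Gabra5 differed by 0.26 at most, with overlap in every combination.

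Separation of this kind was common. Of 14665 genes, 13.3%, 10.4%, 15.4% and 13.5% had all stimulated libraries above all unstimulated ones, and 8.58%, 6.61%, 9.42% and 7.51% had all below, in the same order of combinations. Against that, 3, 2, 0 and 1 members were separate upward and 0, 0, 0 and 1 downward.

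**Figure D3:**
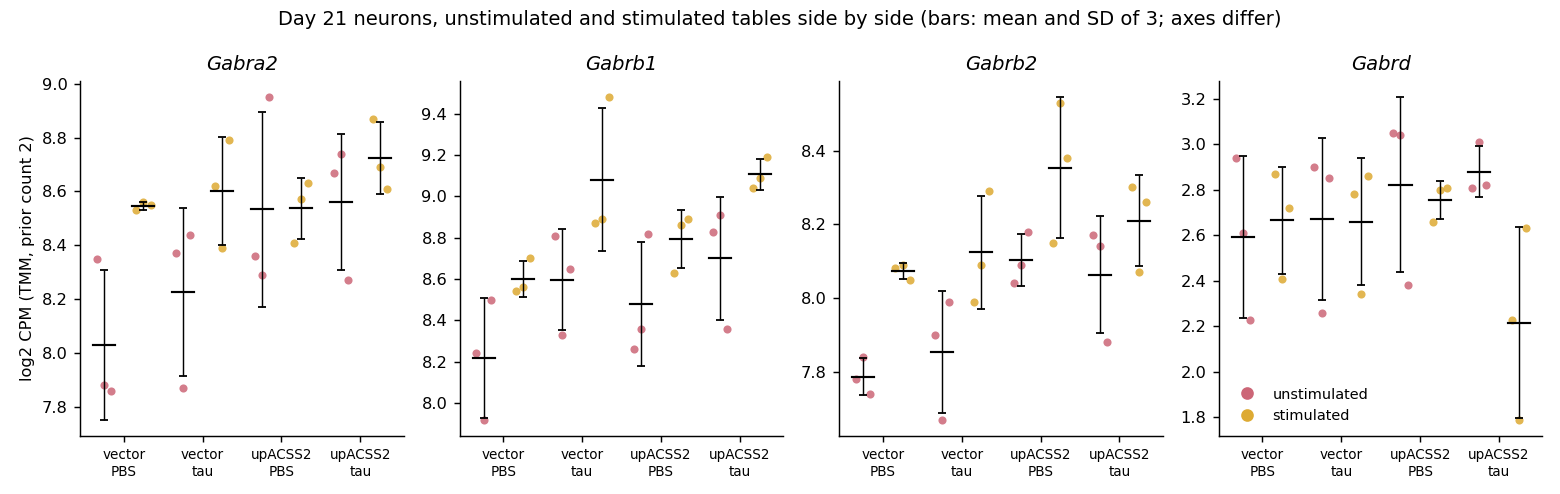
Log2 CPM (y axis, differing by panel) of 4 members in unstimulated and stimulated day 21 cultures, by virus and tau, with the mean and SD of 3 libraries. Gabrb1 points of stimulated cultures lie above the unstimulated points except with upACSS2 in PBS, and stimulated Gabrd lies below with upACSS2 and tau.

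Within the stimulated cultures, with 14939 genes tested, 0 members were called by edgeR in the 5 comparisons. The shares of all genes called were 0.208% (upACSS2 against vector in PBS), 0.937% (the same in tau), 3.02% (tau against PBS with vector), 0.208% (tau against PBS with upACSS2) and 0% (interaction, with 2135 genes at an unadjusted p under 0.05 by edgeR and 128 called by DESeq2). Of the 7, 3, 2, 2, 4 and 1 had an unadjusted p under 0.05, and DESeq2 called 0, 0, 1, 1 and 0. Of all genes, 2375, 3047, 3624, 2132 and 2135 had an unadjusted p under 0.05 by edgeR. DESeq2 called 422, 966, 1534, 453 and 128 of all genes.

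With vector, Gabrb1 was 8.87, 8.89 and 9.48 in tau against 8.54, 8.56 and 8.70 in PBS, higher in every tau library, by 0.51 (SE 0.14, edgeR adjusted p = 0.0647; DESeq2 adjusted p = 0.0156). Gabra3 was 4.56, 4.16 and 4.44 against 5.10, 4.51 and 4.91, at -0.46 (SE 0.17, adjusted p = 0.116) with overlap. Replicates that share a number deviated together in this comparison, and with the replicate number as a block both were called, Gabra3 at -0.45 (edgeR adjusted p = 0.0396) and Gabrb1 at 0.49 (edgeR adjusted p = 0.0302). That block called 1069 of 14939 genes, against 451 without it. Astrocyte markers summed to 3186 to 4948 CPM in these tau libraries against 6585 to 10429 in PBS. Interneuron markers had 1146 to 1242 against 1423 to 1808, and dentate granule cell markers 419 to 551 against 638 to 711. Excitatory neuron markers had 3215 to 4640 against 3186 to 4084, and CA pyramidal cell markers 279 to 366 against 269 to 339. The part of cell make-up in the tau differences was not tested.

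With upACSS2, Gabra5 was at 8.47, 8.11 and 8.48 log2 CPM in tau, or 275 to 357 CPM, against 186 to 256 CPM in the PBS libraries. Every tau library was higher, by 0.65 (SE 0.18, edgeR adjusted p = 0.144), and DESeq2 called it (adjusted p = 0.0276). Gabrb1 was also higher in every tau library, by 0.31 (SE 0.14, edgeR adjusted p = 0.346), and Gabrd was lower in every one, at -0.51 (SE 0.21, adjusted p = 0.306). The share of all genes that separate in this way was not counted within the stimulated cultures, so these separations are not read as particular to the members. Excitatory neuron markers summed to 4071 to 4564 CPM in tau against 2611 to 3272 in PBS. CA pyramidal cell markers had 358 to 389 against 243 to 286, and dentate granule cell markers 486 to 566 against 651 to 727. Interneuron markers had 1441 to 1881 against 1845 to 2268, and astrocyte markers 7667 to 8689 against 5780 to 10251. Their part in the member differences was not tested. Gabra3 was again the member with the largest interaction of virus and tau, 0.83 (SE 0.23, adjusted p = 0.233), at -0.46 with vector and 0.36 with upACSS2. As on day 21 without stimulation, this difference between the arms did not pass the test in the fit without a replicate block.

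Without a virus, all 7 members were lower in tau than in PBS cultures, but 0 were called by edgeR, which called 0% of 16341 genes (2272 genes at an unadjusted p under 0.05; DESeq2 called 326 genes). Gabrb2 had log2 CPM of 4.97, 5.31, 5.84 and 5.44 in tau and 6.27, 6.06 and 7.36 in PBS, a difference of -1.26 (SE 0.34, edgeR adjusted p = 0.306), and was the only member called by DESeq2 (-1.25, adjusted p = 0.0416). Gabrd had 1.49, 1.58, 1.61 and 1.11 against 1.72, 2.08 and 3.22, at -1.08 (SE 0.37, adjusted p = 0.323). Its counts were 43 to 75 in the tau libraries, and 19 in the shallowest PBS library. Gabra4 had 5.91, 6.01, 5.82 and 5.61 against 6.11, 6.10 and 6.49, at -0.40 (SE 0.14, adjusted p = 0.323). In these 3 genes every tau library was below every PBS library; of all genes 9.8% were separate in that direction and 6.91% in the other.

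Gabra2 was at -0.79 and Gabra5 at -0.87, with overlap, and Gabra3 at -0.23 and Gabrb1 at -0.16. In PBS replicate 3, Gabra2 reached 8.46 against 7.19 and 7.05, and Gabra5 7.08 against 5.31 and 5.10. That library also held 2517 CPM of interneuron markers, 2368 of astrocyte and 130 of oligodendrocyte markers, against 1202 to 1346, 8763 to 10371 and 1840 to 2209 in the other PBS libraries, and 542 to 1120, 7587 to 14557 and 2691 to 4085 in the tau libraries. Without it the differences were -0.20 for Gabra2, -0.26 for Gabra4, 0.07 for Gabra5, -0.74 for Gabrb2 and -0.49 for Gabrd. Neuron markers summed to 2799 to 4748 CPM in the PBS libraries and 2164 to 2746 in the tau libraries. Excitatory neuron markers summed to 987 to 1964 CPM in PBS and 1497 to 1826 in tau. The part of cell make-up in the differences was not tested.

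**Figure D4:**
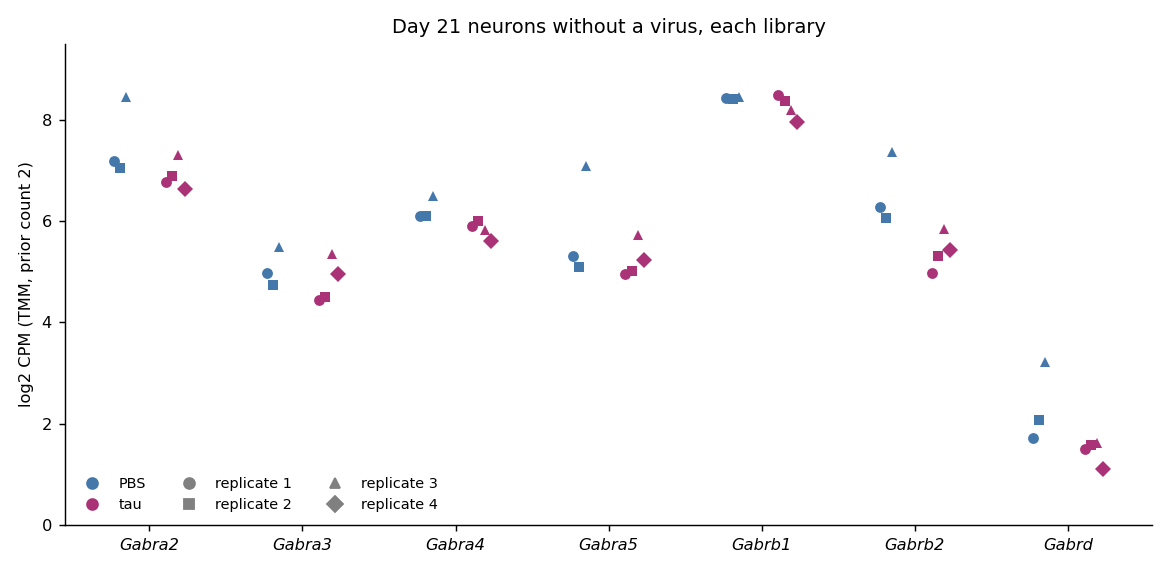
Log2 CPM (y axis) of each member (x axis) in each of the 7 libraries without a virus, with the treatment by colour and the replicate by symbol. PBS replicate 3 is the highest library for Gabra2, Gabra5, Gabrb2 and Gabrd, and the tau libraries of Gabra4, Gabrb2 and Gabrd all lie below the PBS libraries.

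In mouse hippocampus no member was called between the virus arms or between times. edgeR and DESeq2 called 0 of the 7 in each of 7 comparisons, and only 1 member, in 10-month mice, had an unadjusted p under 0.05. The lowest adjusted p of any member was 0.921 in aged mice, 0.518 in 10-month mice, 0.964 and 0.457 for the virus in PS19 mice at 1 and 6 months, 0.341 and 0.509 for time in PS19 mice with vector and with upACSS2, and 0.422 for their interaction. Over all genes edgeR called 0% in aged mice, 0% in 10-month mice, 0% in PS19 mice at 1 month and 0% at 6 months, 7.46% between 6 months and 1 month with vector, 0.0442% with upACSS2, and 0% for the interaction. In the 5 comparisons without a call, 846, 1204, 463, 2237 and 1956 genes had an unadjusted p under 0.05 and DESeq2 called 1, 4, 1, 135 and 3.

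In aged mice Gabra2 ran from 6.14 through a median of 6.54 to 6.76 with upACSS2 and from 6.27 through 6.49 to 6.72 with vector. Gabra5 ran from 7.35 through 7.78 to 8.16 and from 7.41 through 7.89 to 8.20. Gabra3, the alpha subunit with the widest spread there, ran from 6.22 through 6.68 to 7.09 and from 5.96 through 6.73 to 7.34. The arms overlapped over nearly their whole ranges in all 3 genes.

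In 10-month mice Gabra3 was at -0.29 (5.18 to 6.09 against 5.17 to 6.43) and Gabrb2 at 0.26 (7.28 to 7.71 against 7.03 to 7.35), both with overlap. Without vector replicate 2, which was rich in thalamic markers, Gabra3 was at -0.16, and without vector replicate 1 at -0.45. In PS19 mice at 6 months Gabra2 and Gabra5 were both at 0.31. Without upACSS2 replicate 2 Gabra2 was at 0.07, and without vector replicate 3 Gabra2 was at 0.20 and Gabra5 at 0.12. At 1 month Gabrb2 was at 0.28 (0.17 without vector replicate 4), and its interaction of virus and time was -0.42; the interaction and the time comparison with upACSS2 also cannot be told apart from dissection. Over time with vector, the comparison with most calls among all genes, Gabra5 was at -0.29 (-0.12 without vector 6-month replicate 3): it had a median of 8.09 (7.52 to 8.21) at 1 month and 7.90 (6.58 to 8.05) at 6 months. The low value of 6.58 is replicate 3, in which excitatory neuron markers summed to 3791 CPM against 5098 to 7532 in the other 4 libraries of its group. Among the other genes of the GABA lists 1 synaptic partner of 18 was called in that comparison, lower at 6 months.

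Thalamic markers were high in 3 mouse libraries, at 827 CPM (PS19 upACSS2 1 month replicate 4), 643 (PS19 vector 6 months replicate 4) and 490 (10-month vector replicate 2), against 113 to 264 in the others. The first of these had the highest Gabra4, Gabrb2 and Gabrd of its group, 7.60, 7.80 and 4.95. The second had 7.12, 7.41 and 4.56, the highest of its group for Gabra4 only, and the third 6.92, 7.24 and 4.94, the highest of its group for Gabrd only. The part of thalamic tissue in these levels was not tested. With both of these PS19 libraries left out, edgeR called 0 members in each PS19 comparison.

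**Figure D5:**
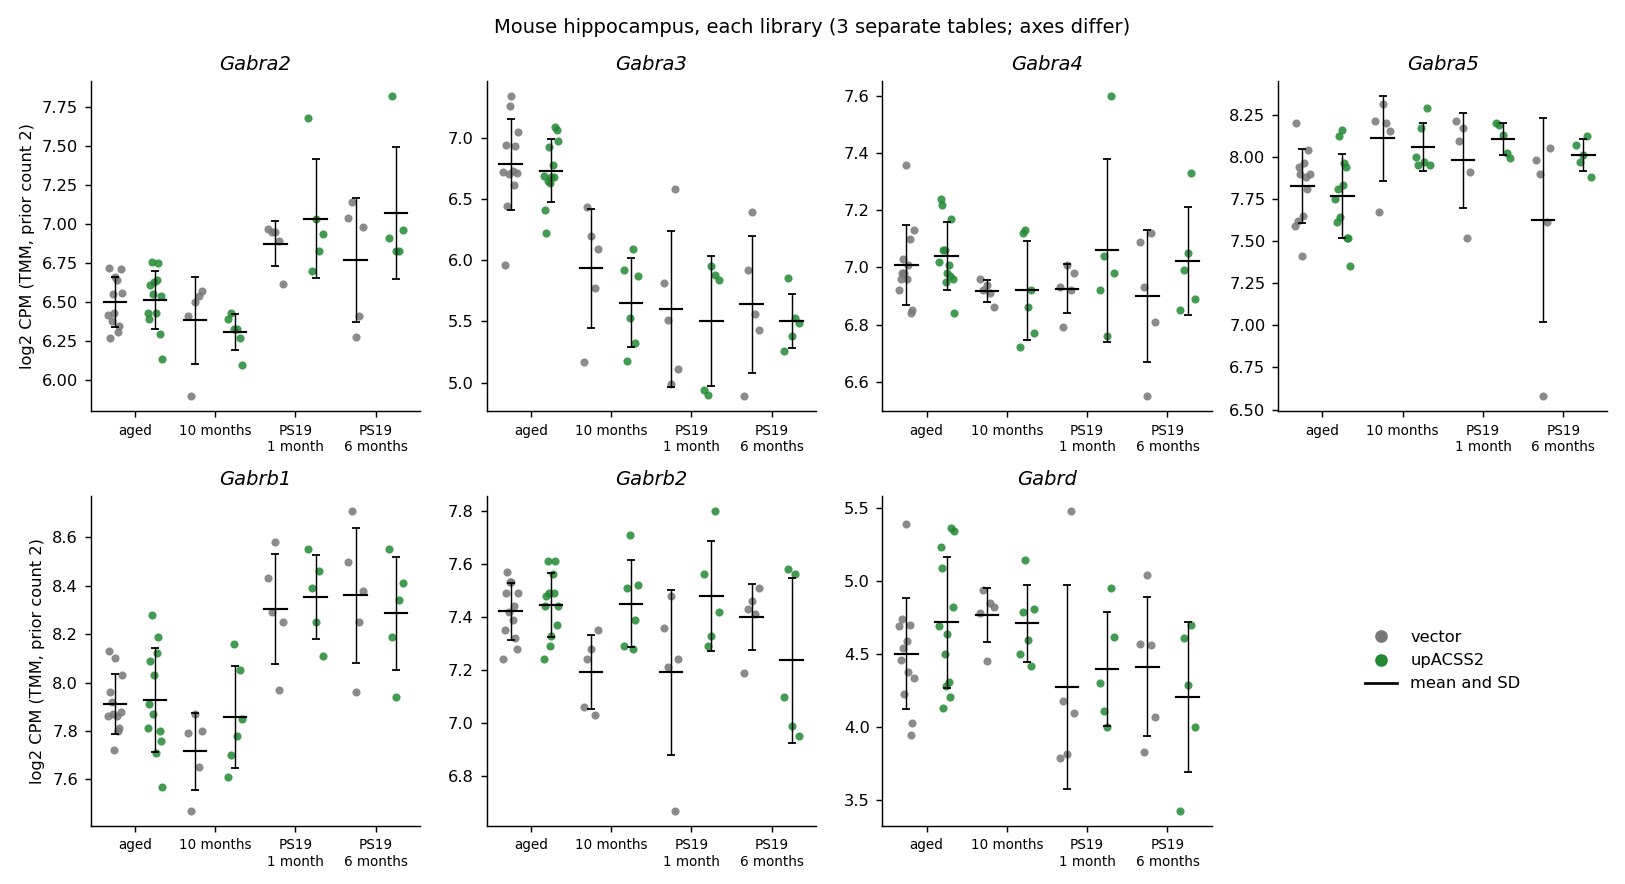
Log2 CPM (y axis, differing by panel) of each member in the mouse libraries, by table and group, with vector and upACSS2 in different colours and the mean and SD. The arms of each table overlap for every member, and Gabra3 runs from 5.96 to 7.34 in aged mice, against 4.89 to 6.58 in PS19 animals. These tables were normalized separately and differ in age, genotype, virus dose and dissection, whose effects cannot be told apart.

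Relative to length (CPM per kb of annotated exons), Gabra5 was the most abundant of the 7 in 20 of 22 groups, with 31.1 to 49.8% of the summed level of the 7. Gabra2 led in PBS cultures without a virus (27.4, SD 16, against 25, SD 0.252, for Gabrb1) and Gabrb1 in tau cultures without a virus. The lead of Gabra2 came from PBS replicate 3, where it reached 351 CPM against 133 and 146 in the other PBS libraries. Gabrd was the lowest in all 22 groups, at 0.503 to 5.01% of the sum. On the same scale the share of Gabra2 was 31.9 to 32.7% on day 9, 19.2 to 22.3% on day 21 in unstimulated cultures with a virus and 5.57 to 9.49% in mice. With vector in PBS, Gabra5 went from 116 ± 1.74 to 64.5 ± 20.3 CPM per kb and Gabra2 from 93.4 ± 0.644 to 34.7 ± 6.95 (SD, n = 3 each).

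Across all 22 groups, whose tables were normalized separately, the group means of log2 CPM spanned 3.33 for Gabra2, 2.41 for Gabra3, 1.22 for Gabra4, 3.38 for Gabra5, 1.39 for Gabrb1, 2.96 for Gabrb2 and 3.32 for Gabrd. Gabra2 was highest on day 9 (9.64 with upACSS2 in PBS) and lowest in 10-month upACSS2 mice (6.31). Gabra3 and Gabrd had the opposite placing, with the mean of every mouse group above that of every culture group. Gabra3 went from 6.78 in aged vector mice to 4.37 in upACSS2 PBS cultures of day 21, and Gabrd from 4.77 in 10-month vector mice to 1.45 in tau cultures without a virus. Gabra4, Gabra5 and Gabrb2 were lowest in those tau cultures as well, at 5.84, 5.23 and 5.39. Neighbours in these orders rarely separated: of 21 neighbouring pairs of groups per gene, 2 did not overlap for Gabra2, 2 for Gabrd, 1 each for Gabra4 and Gabrb2, and 0 for the others. For Gabra2 the breaks lay within and after the day 9 groups, and for Gabrd between the mouse and culture groups and above the tau cultures without a virus.

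Across the 24 unstimulated libraries the log2 CPM of Gabra2 and Gabra5 correlated at Pearson r = 0.91, and those of Gabra4 and Gabrb2 at 0.63. These points fall into 2 culture days and 4 combinations of virus and tau, and no p is given. Of 11953 genes compared over the same libraries, the closest in pattern to Gabra2 were Grm5 (r = 0.991) and Raph1 (0.990), to Gabra5 Lrfn5 and Lmo7 (0.972 each), to Gabrb2 Zfp507 (0.907) and Ankrd29 (0.886), to Gabra4 Rock2 (0.890) and Sort1 (0.876), to Gabrb1 Pdp1 (0.860) and Rhob (0.858), to Gabrd Bcl2l13 (0.827) and Ngef (0.825), and to Gabra3 Zfp180 and Usf3 (0.697 each).

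Across the 55 mouse libraries, with the mean of each table removed, the order was different. Gabra5 was closest to Neurod6 (r = 0.911), a marker of pyramidal neurons, and to Csnk1a1 (0.876), and Gabrb1 to Dock4 (0.846) and Dock9 (0.840). Gabra3 was closest to Cdh22 (0.827) and Cxxc4 (0.821), Gabrb2 to Gspt1 (0.804) and Slc9a7 (0.771), and Gabrd to Pde7b (0.798) and Mkx (0.793). Gabra2 was closest to Atf6b (0.675) and St6galnac5 (0.655), and Gabra4 to Zfand5 (0.623) and Thsd7a (0.622). Gabra5 and Gabrd ran opposite to each other (r = -0.61), as did Gabra5 and Gabra3 (-0.55), while Gabra5 and Gabra2 ran together (0.58). Libraries of whole and dorsal hippocampus, and libraries of 3 tables, share these points.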

How the data were processed

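The data are deposited raw read counts per gene, made by the authors; the submitters' processing notes list STAR, featureCounts, HTSeq, DESeq2 and build mm10, and their roles and versions are not given in the sources used here. A row without a gene name (6.13 to 8.74% of reads without a virus) was left out. Samples were grouped by their titles, which the treatment label contradicts for several groups. Differences were tested with edgeR 4.0.16 (R 4.3.3) by quasi-likelihood F tests, two-sided, with TMM scaling, filterByExpr by group and Benjamini-Hochberg adjustment over all genes tested (threshold 0.05). Levels are log2 CPM with a prior count of 2. Days 9 and 21 were fitted separately, except for comparisons between them. The 29 comparisons were refitted with DESeq2 1.42.0, other scalings, no filter, other sets of libraries, replicate blocks and 98 single libraries left out, and the method was tested on simulated data. The members and gene lists were chosen with earlier results of these data known. Named genes are the 7 members, at most the 2 highest and 2 lowest called genes of each GABA list where a member was called, and the 2 genes most alike to each member. Within groups, the most similar of 242 library pairs differed by a chi-square of 2.32 per gene, so none was counted as a duplicate. Replicate numbers are only numbers in the labels; deviations from the group means correlated above 0.1 in every same-numbered pair for tau against PBS in stimulated vector cultures (0.14 to 0.344), upACSS2 against vector in stimulated tau cultures (0.111 to 0.383) and cultures without a virus (0.22 to 0.394), and not in the other comparisons. Some genes of the lists are not reported here by name.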

Additional observations from a re-analysis of the deposited data

Results flagged for a closer look

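In groups of 4 to 10 libraries the highest or lowest value of each member was checked for a gap to the nearest other value too wide for its group by Dixon's test. Of 49 such checks 5 stood out, where chance alone gives about 2.45. In 10-month vector mice, replicate 2 had the lowest Gabra2, 5.90 log2 CPM against 6.41 to 6.57 in the others, and the lowest Gabra5, 7.67 against 8.15 to 8.31. That library also held 490 CPM of thalamic markers, whose part in these levels was not tested. In PS19 mice at 6 months with upACSS2, replicate 2 had a Gabra2 level of 7.82 against 6.83 to 6.96. In PS19 mice at 1 month with vector, replicate 5 had a Gabra2 level of 6.62 against 6.89 to 6.97, and replicate 4 a Gabrd level of 5.48 against 3.79 to 4.18.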

How the results depend on the processing

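Of 15 called fold changes with 192 alternative values, 159 kept their call, 33 lost it and 0 changed direction; of 52 others with 694 alternatives, 669 stayed uncalled, 23 were called and 2 changed direction. Those 2 were Gabra5 for upACSS2 against vector in day 21 PBS cultures (-0.02 without upACSS2 replicate 3, up to 0.55 without vector replicate 1) and Gabra5 for tau without a virus (0.07 without PBS replicate 3, down to -1.22 without PBS replicate 2). Of 399 alternative counts of called members, 23 moved by over 1.5 times; the causes were not tested beyond the fewer libraries or different spread each fit uses. With only the groups compared, culture time called 3 members in upACSS2 PBS (8090 of 14128 genes) and 5 in upACSS2 tau (8918 of 14243 genes). Without the libraries rich in Rn45s it called 3 members in upACSS2 PBS. With all 24 unstimulated libraries in 1 fit, the virus in PBS called 0 members on day 9 (2 of 14863 genes) and 1 on day 21 (1576 genes). With no filter on low counts, tau with vector on day 9 called 1 member (1153 of 20654 genes). DESeq2 called 1 member for tau in stimulated vector, stimulated upACSS2 and no-virus cultures (1534, 453 and 326 of all genes). The replicate block called 2 members for tau in stimulated vector cultures, 1 for tau with upACSS2 (Gabra5, edgeR adjusted p = 0.0107) and 1 for their interaction (Gabra3 0.81, edgeR adjusted p = 0.0391). Of 14939 genes, the block called 1069, 487 and 166 in these comparisons, against 451, 31 and 0 without it. The last 2 member calls rest on numbers that do not pair the libraries throughout, and the block moved no other count of members by over 1.5 times. With 1 replicate left out, counts ran from 2 to 4 and from 3 to 4 for culture time in vector PBS and upACSS2 PBS, from 1 to 3 for the virus in day 9 PBS, from 0 to 1 for tau with vector on day 9 (1 without tau replicate 3) and from 0 to 1 for tau in stimulated vector cultures (1 without PBS replicate 2 or tau replicate 2). Of 56 alternative values for stimulated minus unstimulated cultures 1 moved (Gabrb2 with vector in PBS, 0.20 without scaling factors). The refits without the libraries rich in Rn45s or in thalamic markers were chosen after seeing the data. Gabrd had the fewest reads of the members, 19 to 256 per culture library without a virus.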
